A study of Mus musculus with 36 samples.

Results

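Chromatin accessibility was examined at the genes that encode the heterochromatin protein 1 (HP1) paralogs and the enzymes that write histone H3 lysine 9 (H3K9) methylation, in CD4 T cells of mice lacking HP1α or HP1γ. The 9 genes were Cbx5 (HP1α), Cbx1 (HP1β), Cbx3 (HP1γ), Suv39h1, Suv39h2, Setdb1, Ehmt1, Ehmt2 and Trim28. A peak belonged to a gene when its midpoint was nearest to a transcription start site (TSS) of one of the gene's protein-coding transcripts (GENCODE, GRCm39) or when it overlapped the gene body. The rule used no accessibility value and found 19 of 71509 peaks, 7 at the HP1 paralogs, 10 at the methyltransferase genes and 2 at Trim28.

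HP1 proteins read methylated H3K9 through a chromodomain and gather silencing factors on heterochromatin. SUV39H1 and SUV39H2 write the trimethyl mark of constitutive heterochromatin, SETDB1 writes it at silenced genes and retroelements where it is brought by TRIM28 and zinc-finger proteins, and EHMT1 (GLP) with EHMT2 (G9a) writes the mono- and dimethyl marks of euchromatin. In T cells this machinery is known for keeping genes of other T helper lineages silent.

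Splenic CD4 T cells were profiled by ATAC-seq, which counts the places where a transposase can reach the DNA and so measures accessibility, not RNA or protein, with 3 libraries in each of 12 groups. HP1α KO mice (HP1a in the labels) were germline Hp1a -/-, obtained by deleting a floxed allele with CMV-cre, and their WT were Hp1a +/+ littermates. HP1γ KO mice (HP1g) were homozygous for a floxed Hp1g allele and carried Cd4-cre, which deletes in the T cell lineage, and their WT were littermates with the same floxed allele and no Cre. Both lines were kept on a mixed background, and littermates were young adults matched for sex. Naive cells came straight from the spleen. Tconv were donor-specific cells recovered from the spleen of irradiated C57BL/6 J or congenic B6 hosts that had received bone marrow of C57BL/6 J and B6D2F1 mice with the naive cells, and the last condition was Tconv transferred with ex vivo expanded Treg. The labels do not say which libraries share an animal or a transfer, so p-values measure the spread between libraries, which may be partly technical.

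Libraries held from 1.49 to 96.81 M reads in peaks (M, mega-reads). The HP1α libraries with Treg stood apart, with 1.49 to 12.69 M in WT and 5.73 to 50.68 M in KO, and 51.0% to 62.1% of their reads lay in peaks near a TSS against 58.6% to 63.5% in the other groups. The study left out 3 of them (WT replicate 3, KO replicates 2 and 3) for quality, so this comparison set 1 KO library against 2 WT libraries. The lone KO library was assumed to vary like the other groups of the fit, and within the groups compared alone 0 of all peaks were called. Fold changes without those 3 libraries come first below, with those of all libraries beside the peaks discussed. The marker levels that follow are means over every library of a group, those left out by the study included. All 6 T cell genes of the marker list had a promoter peak, and their summed level was 93.5 to 130.0 CPM per kb (reads scaled to library size, CPM, and to peak width) in Tconv and 57.7 to 112.0 with Treg, with Cd3e lowest in HP1α WT with Treg, at 7.8 against 17.2 in HP1α WT Tconv. The summed level of 4 activation genes (Cd44, Ifng, Tbx21 and Pdcd1) was 12.1 to 14.5 CPM per kb in naive groups and 43.0 to 53.9 in Tconv. Of 4 B cell genes only Pax5 had a promoter peak, at 2.33 to 2.8 CPM per kb in naive, 4.71 to 5.24 in Tconv and 5.74 to 13.4 with Treg, highest in HP1α WT. Of the CD8 genes Cd8b1 alone had one, at 22.1 to 22.5 in naive and 2.26 to 3.9 in Tconv. The myeloid list (Itgam and Cd14 of 4 genes) summed to 14.4 to 20.0, 11.9 to 14.8 and 8.73 to 12.6, and neither NK gene had a promoter peak. Of the Treg genes, Foxp3 was at 22.3 to 26.2 in naive cells, 14.9 to 21.7 in Tconv and 10.1 to 18.6 with Treg. Ikzf2 was at 11.6 to 16.9, 8.21 to 11.7 and 9.7 to 16.7, each range running from HP1γ WT to HP1γ KO. The part of other cells in the results below was not tested.

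Of the 19 peaks, 9 lay at a start of their own gene, 7 elsewhere in the gene body and 3 outside it. The starts were at Cbx5 (chr15:103146941-103150360, a peak shared with the start of Hnrnpa1, and chr15:103123401-103124490 at an internal start), Cbx1 (chr11:96679121-96681130), Cbx3 (chr6:51444471-51448810, shared with Hnrnpa2b1), Suv39h1 (chrX:7940051-7941750), Setdb1 (chr3:95263601-95265270), Ehmt1 (chr2:24808591-24810320), Ehmt2 (chr17:35116691-35119530, which also holds a start of C2) and Trim28 (chr7:12756751-12759610). Each of these overlapped an exon and a UTR of its gene. No peak contained a start of Suv39h2, and its single peak (chr2:3491621-3492320) lay at -15856 bp inside the neighbouring gene Hspa14. Reads in a shared peak cannot be divided between its genes. The median width of the 19 peaks was 1360 bp against 750 bp over all peaks.

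Sequences are printed 5′ to 3′ on the strand of the gene from GRCm39. The promoter of Cbx1 is shown because Cbx1 encodes the paralog targeted in neither line, from 170 bases before to 30 after its start (chr11:96679763-96679962), and the capitals mark a GC box (GGGCGG, bound by Sp factors).
Cbx1 promoter: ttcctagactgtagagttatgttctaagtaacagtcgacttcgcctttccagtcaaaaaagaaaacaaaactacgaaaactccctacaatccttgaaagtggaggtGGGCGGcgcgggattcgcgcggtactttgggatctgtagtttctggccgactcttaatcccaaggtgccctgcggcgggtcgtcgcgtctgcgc
The 200 bases at the centre of 4 elements are shown because these peaks, in or just upstream of their gene, were called between naive cells and Tconv in more than 1 arm (line and genotype). They are Cbx5 in an intron at 2280 bp (chr15:103145946-103146145), Setdb1 upstream of the gene at -3346 bp (chr3:95267781-95267980), Ehmt1 in an intron at 33090 bp (chr2:24720746-24720945) and Cbx1 in an intron at 12444 bp (chr11:96696531-96696730), each distance being from the midpoint of the peak to the nearest start. Capitals mark TGTGGT, a core letter run of RUNX sites, in Setdb1 and Cbx1, CAGGAAG, an ETS run read on the other strand, in Ehmt1, and ATCAAAG, a TCF1 and LEF1 run read on the other strand, in Cbx1.
Cbx5 intron: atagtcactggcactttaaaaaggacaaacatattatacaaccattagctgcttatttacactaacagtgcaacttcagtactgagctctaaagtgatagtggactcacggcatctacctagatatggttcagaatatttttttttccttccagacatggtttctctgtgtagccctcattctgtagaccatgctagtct
Setdb1 upstream: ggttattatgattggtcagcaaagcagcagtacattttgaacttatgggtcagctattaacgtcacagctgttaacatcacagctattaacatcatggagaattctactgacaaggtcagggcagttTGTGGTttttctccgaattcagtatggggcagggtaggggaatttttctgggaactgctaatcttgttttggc
Ehmt1 intron: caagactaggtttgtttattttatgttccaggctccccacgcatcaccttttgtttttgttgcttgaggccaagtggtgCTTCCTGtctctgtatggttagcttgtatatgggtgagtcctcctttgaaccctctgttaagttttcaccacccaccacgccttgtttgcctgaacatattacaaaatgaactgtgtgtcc
Cbx1 intron: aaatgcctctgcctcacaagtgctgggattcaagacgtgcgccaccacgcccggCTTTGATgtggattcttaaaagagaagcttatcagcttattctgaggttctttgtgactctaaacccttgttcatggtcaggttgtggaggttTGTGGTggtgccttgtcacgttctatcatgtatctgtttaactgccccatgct

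Of all 71509 peak centres of the same length, 22.5% held TGTGGT, 15.5% CAGGAAG and 4.06% ATCAAAG on either strand. The runs TGANTCA (AP-1, 9.5% of all centres), TGGAAA (NFAT, 16.6%), AGGTGTGA (T-box, 1.39%) and GAAANNGAA (IRF, 7.39%) were in none of the 4 windows, and the Cbx5 window held no run of the list. At promoters, GGGCGG was in 38.4% of 21751 windows of the same length. The Cbx1 window held none of CCAAT (32.2%), CCGGAAG (8.53%), GCGCATGC (3.18%), CACGTG (5.94%), TGACGTCA (2.17%) and GCGGGAA (4.16%). The 2 runs in the Cbx1 intron do not overlap. A match describes letters and not binding.

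The promoters of 8 members were open in every group. Outside the HP1α groups with Treg, the group means on the length scale were highest at Cbx5 (44.1 to 62.4 CPM per kb), Cbx3 (33.5 to 50.2) and Trim28 (32.3 to 47.9), intermediate at Ehmt1 (25.7 to 36.4), Suv39h1 (20.5 to 31.6) and Cbx1 (15.7 to 22.1), and lowest at Ehmt2 (9.17 to 17.1) and Setdb1 (7.73 to 12.6). The ranges of neighbours in this order overlapped. In the HP1α groups with Treg the means over all 3 libraries, those left out by the study included, went down to 29.3 at Cbx5, 25.0 at Cbx3, 10.8 at Cbx1 and 5.26 at Setdb1.

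**Figure D1:**
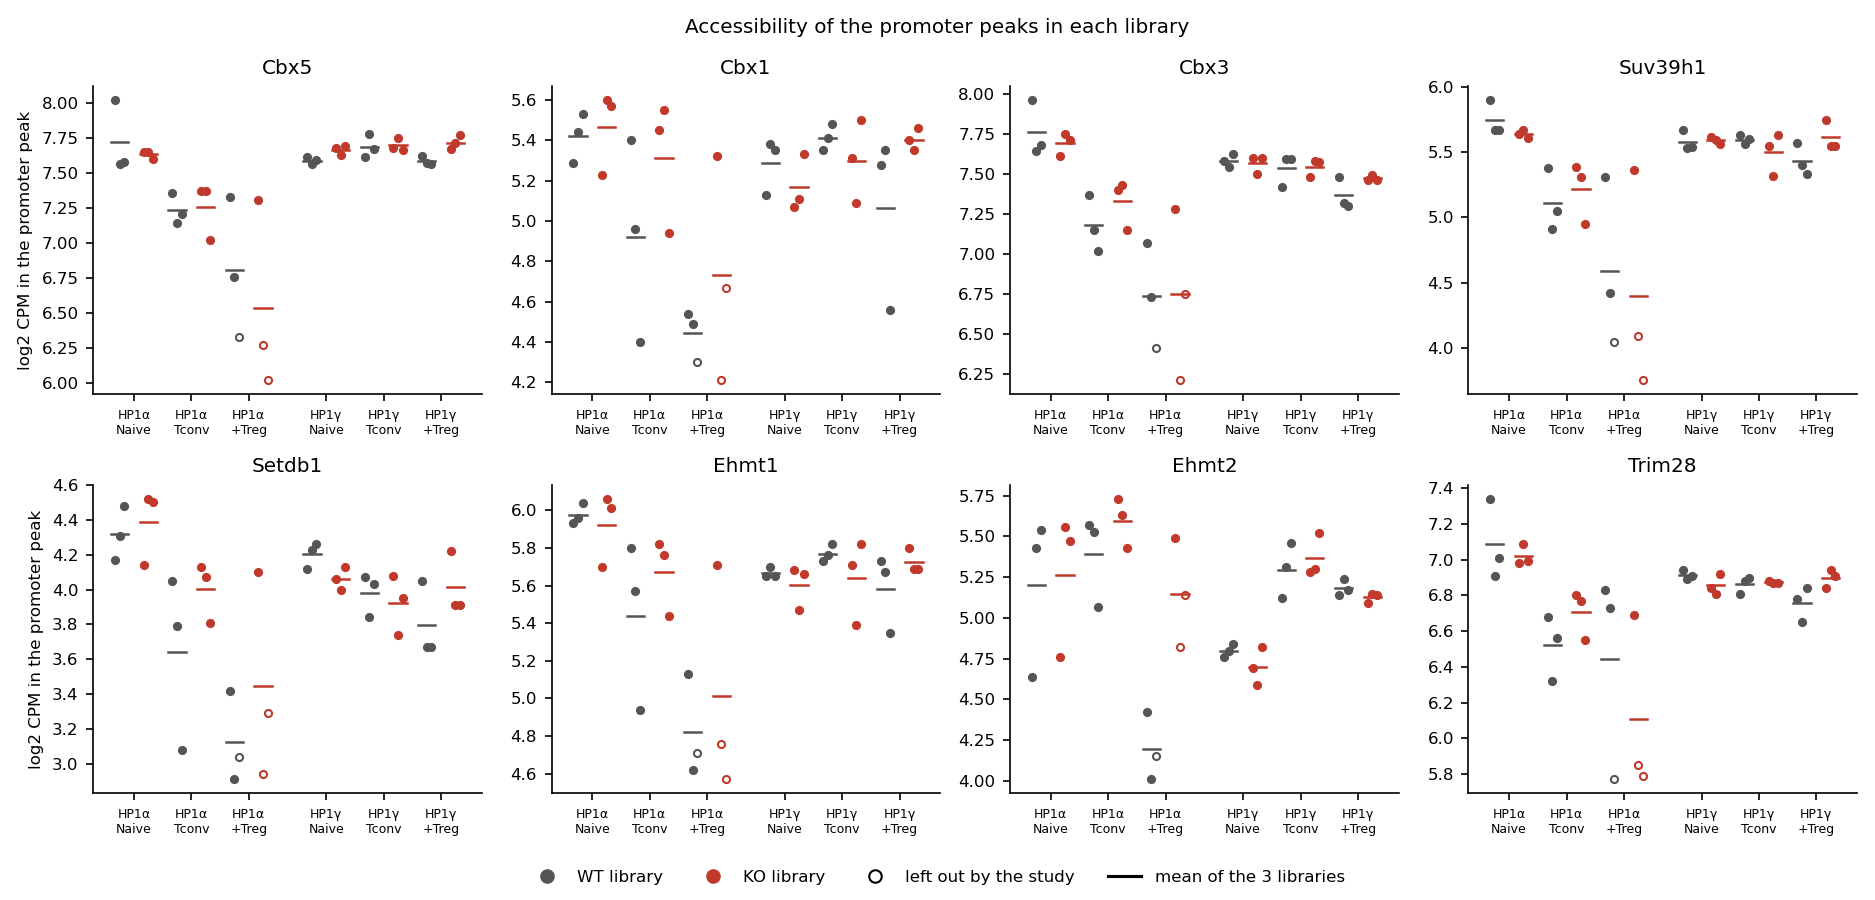
Promoter accessibility of the 8 members with a promoter peak, as log2 CPM (prior count 2) by library, in the 12 groups (+Treg is Tconv transferred with Treg). Points are libraries, open circles the 3 libraries the study left out, and bars the group mean over 3 libraries. Libraries of one group spread more in HP1α than in HP1γ at some promoters, and in the HP1α groups with Treg Cbx5 ran from 6.02 to 7.33.

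The first question was whether the loss of one HP1 went with a change at the genes of the others or of the writers. The targeted genes come first. The promoter peak of Cbx5 in HP1α KO had 7.65, 7.65 and 7.6 log2 CPM in naive cells against 8.02, 7.56 and 7.58 in WT. In Tconv it had 7.37, 7.37 and 7.02 against 7.36, 7.14 and 7.21. KO and WT overlapped in both, and the log2 fold changes of KO over WT were -0.11 (95% interval -0.41 to 0.19) and 0.01 (-0.3 to 0.33). With Treg it had 7.31 in the kept KO library and 7.33 and 6.76 in the kept WT libraries. The libraries left out were at 6.27 and 6.02 in KO and 6.33 in WT. The internal start of Cbx5 differed by 0.01 (-0.26 to 0.28) in naive cells and 0.1 (-0.24 to 0.43) in Tconv. With Treg it had 3.9 in the kept KO library and 3.82 and 3.56 in the kept WT libraries, and 2.96 and 3.18 against 3.25 in those left out. The Cbx5 intronic element had -0.61, -0.32 and 0.37 log2 CPM in KO Tconv against 0.16, 1.25 and 0.68 in WT Tconv, and the groups overlapped. Its log2 fold change of -0.88 (-1.63 to -0.12) had an unadjusted p of 0.0251 and an adjusted p of 0.941 in the edgeR quasi-likelihood test, and in naive cells, where reads were few, it was -0.08 (-1.3 to 1.14). Without single libraries the Tconv value ran from -1.47, without WT replicate 1, to -0.54, without WT replicate 2, and did not pass. With Treg the element had -0.17 in the kept KO library and 0.48 and -4.59 in the kept WT libraries, the last with 0 reads. The libraries left out were at 1.46 and 1.55 in KO and 1.14 in WT. In HP1γ KO the promoter peak of Cbx3 differed from WT by 0.02 in naive cells and 0.02 in Tconv (both -0.12 to 0.15) and by 0.11 with Treg (-0.02 to 0.25). The sources used here do not place the deleted sequence relative to these peaks, so their levels do not check the genotype.

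Another peak, at the Cd4 promoter, set the HP1γ KO libraries apart from WT. The promoter peak of Cd4 (chr6:124856622-124866115) had 9 to 9.51 log2 CPM in the 9 HP1γ KO libraries and 6.33 to 6.89 in the 9 WT libraries, and the log2 fold changes in these conditions, naive first, were 2.77, 2.55 and 2.6, each ± 0.1 (SE) (adjusted p 1.43e-11, 5.76e-11 and 6.93e-11, edgeR). In HP1α cells it differed by -0.01 ± 0.11, 0.08 ± 0.12 and 0.36 ± 0.2 (adjusted p 1, 0.999 and 0.385, edgeR). HP1γ KO mice alone carry Cd4-cre, and the part of transgene copies in this peak was not tested. Within 1 Mb on either side of the targeted genes, 0 of 105 peaks around Cbx5 were called in any HP1α comparison, with 2, 2, 11 and 12 at an unadjusted p under 0.05 in naive, Tconv, Tconv with Treg and the mean of the 3. Around Cbx3, 0, 1, 9 and 2 of 103 peaks were called in the HP1γ comparisons, where 0.14%, 3.35%, 11.9% and 3.75% of all peaks were.

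In HP1α KO no peak of the 19 passed the test. Here and below, called means that the adjusted p was under 0.05 with a log2 fold change above 1 or below -1, and passed means that the adjusted p alone was. The shares of all peaks called were 0.00559% (naive), 0.021% (Tconv) and 1.63% (Tconv with Treg), the last 0.741% with all libraries. With Treg the 1168 called peaks became 0 without WT replicate 1 and 521 without WT replicate 2, and the 530 of all libraries became 0 without WT replicate 1 and 1 without KO replicate 1. In Tconv the 15 called peaks became 340 without KO replicate 1 and 1 without WT replicate 1. For the mean of the 3 conditions they were 0.014%, and 0.00979% with all libraries, and the 10 called peaks of the former became 1256 without WT Tconv replicate 1 and 130 without KO Tconv replicate 3. Among the 19, the edgeR test gave an unadjusted p under 0.05 for 0 peaks in naive cells, 2 in Tconv, 8 with Treg and 5 for the mean, against 835, 3450, 11635 and 9729 of all 71509 peaks. With all libraries these were 3 with Treg and 2 for the mean, against 8190 and 5988. DESeq2 called 1 with Treg, the promoter of Ehmt2, among 2554 of all peaks, and limma-voom with quality weights called 1 for the mean, the Suv39h2 peak, among 2872. At the 8 promoters the log2 fold changes ran from -0.11 to 0.07 in naive cells (median -0.06, all promoters 0) and from 0.01 to 0.24 in Tconv (median 0.13, all promoters 0.1). With Treg they ran from -0.11 to 1.13 (median 0.48, all promoters 0.08), and with all libraries from -0.23 to 1 (median 0.23, all promoters -0.01). The intervals of the 8 promoters reached from -0.41 to 0.46 in naive cells, and from -0.57 to 2.01 with Treg.

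Cbx1 is the untargeted paralog, whose product HP1β binds the same mark. Its promoter had 5.23, 5.6 and 5.57 log2 CPM in HP1α KO naive cells and 5.29, 5.44 and 5.53 in WT. In Tconv it had 5.45, 5.55 and 4.94 in KO and 5.4, 4.96 and 4.4 in WT, and with Treg 5.32 in the kept KO library against 4.54 and 4.49 in the kept WT libraries. Groups overlapped in naive cells and in Tconv, and the WT Tconv library at 4.4 held the fewest reads of that group. The log2 fold changes were 0.05 (-0.29 to 0.4), 0.24 (-0.14 to 0.62) and 0.79 (0.07 to 1.51, adjusted p 0.259, edgeR). The libraries with Treg that the study left out were at 4.21 and 4.67 in KO and 4.3 in WT, and with all 3 of them the difference was 0.55 (-0.17 to 1.27). Cbx3 in HP1α KO showed -0.08 (-0.34 to 0.18), 0.12 (-0.15 to 0.39) and 0.3 (-0.14 to 0.73), the last 0.09 (-0.48 to 0.67) with all libraries.

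Among the writers in HP1α KO, the largest promoter difference was at Ehmt2, which encodes G9a. With Treg it had 5.49 log2 CPM in the kept KO library and 4.42 and 4.01 in the kept WT libraries, and 4.82 and 5.14 against 4.15 in the libraries left out. All KO libraries were thus above all WT libraries, but the difference of 1.13 (0.25 to 2.01) had an adjusted p of 0.18 and that with all libraries, 1 (0.26 to 1.75), of 0.255 (edgeR). In naive cells and Tconv the Ehmt2 differences were 0.04 (-0.38 to 0.46) and 0.14 (-0.32 to 0.59), and the groups overlapped. The promoters of Setdb1, Ehmt1 and Suv39h1 differed with Treg by 0.75 (0.01 to 1.49), 0.66 (0.06 to 1.26) and 0.18 (-0.38 to 0.75), and that of Trim28 by -0.11 (-0.57 to 0.35). With all libraries these were 0.56, 0.37, -0.03 and -0.23, and KO and WT overlapped at each. Outside promoters the Setdb1 upstream element differed with Treg by -1.63 (-2.77 to -0.5, adjusted p 0.128, edgeR) and the Suv39h2 peak by -1.75 (-3.18 to -0.32, adjusted p 0.204, edgeR), on 8 to 43 and 4 to 55 reads in the kept libraries. With all libraries they were -1.22 (-2.25 to -0.18) and -0.88 (-2.12 to 0.35) and the groups overlapped. At the Suv39h2 peak the left-out libraries were at 2.17 and 1.67 in KO and 1.8 in WT, and at the Setdb1 element at -0.29 and 0.45 in KO and -0.54 in WT. None of these passed, and WT replicate 2 was the shallowest library of the series.

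In HP1γ KO 0 peaks of the 19 were called in naive cells, where 0.14% of all peaks were, and 0 in Tconv, where 3.35% were, with 0 and 1 at an unadjusted p under 0.05 in edgeR, against 6421 and 14031 of all peaks. DESeq2 and limma-voom called 0 members in both, among 2340 and 2458 (DESeq2) and 1441 and 3314 (limma-voom) of all peaks. With Treg 1 was called against 11.9% of all peaks, and 2 passed on the adjusted p alone against 20.5%, with 5 at an unadjusted p under 0.05 against 25620 of all peaks. For the mean of the 3 conditions 0 were called against 3.75%, and 2 passed on the adjusted p alone against 16.4%, with 3 at an unadjusted p under 0.05 against 22591. The shares of members were no higher than those of all peaks. The count over all peaks moved with single libraries, from 2392 to between 955 and 3791 in Tconv, from 8482 to between 3719 and 11572 with Treg, and from 2683 to between 1557 and 4166 for the mean. Both extremes in Tconv came without replicate 3, of KO and of WT, those with Treg without KO replicates 1 and 2, and those of the mean without KO naive replicate 1 and KO replicate 2 with Treg. The 8 promoters differed by -0.1 to 0.11 in naive cells, -0.1 to 0.09 in Tconv, -0.05 to 0.25 with Treg and 0 to 0.09 for the mean, with medians of -0.03, -0.01, 0.15 and 0.04 against 0.02, -0.03, 0.14 and 0.04 over all promoters. For the mean, the intervals of the 8 promoters lay between -0.14 and 0.21.

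Cbx1 in HP1γ KO followed this range. Its promoter had 5.07, 5.11 and 5.33 log2 CPM in KO naive cells against 5.13, 5.38 and 5.35, in Tconv 5.31, 5.09 and 5.5 against 5.35, 5.41 and 5.48, and with Treg 5.4, 5.35 and 5.46 against 5.28, 5.35 and 4.56. KO and WT overlapped in naive cells and Tconv, and with Treg they met at 5.35, with 1 WT library low. The mean difference was 0.04 (-0.14 to 0.21).

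The 2 peaks of the HP1 paralogs that passed in HP1γ KO were at the starts of Cbx5. The first lies at an internal start. It had 3.72, 3.77 and 3.7 log2 CPM in KO naive cells against 3.88, 3.96 and 3.93 in WT. In Tconv it had 3.8, 3.97 and 3.88 against 3.43, 3.54 and 3.52, and with Treg 3.98, 4.39 and 4.14 against 3.77, 3.58 and 3.75. The groups did not overlap in any of the 3 conditions, with KO below WT in naive cells and above it in both Tconv conditions. The log2 fold changes were -0.17 (-0.43 to 0.08), 0.4 (0.13 to 0.67, adjusted p 0.0763) and 0.49 (0.22 to 0.77, adjusted p 0.0128) in edgeR, under the size needed for a call. The mean difference of 0.24 (0.09 to 0.39) had an adjusted p of 0.033, and without single libraries it ranged from 0.19 to 0.28 and no longer passed in 11 of 18 cases. With Treg it ranged from 0.35 to 0.61 and did not pass without KO replicate 2 or WT replicate 2. The difference between the naive and the Tconv effect was 0.57 (0.2 to 0.95, unadjusted p 0.00446, adjusted p 0.329, edgeR). The main Cbx5 promoter peak, shared with Hnrnpa1, also passed for the mean, at 0.09 (0.03 to 0.15, adjusted p 0.0467, edgeR), and differed by 0.11, 0.02 and 0.15 in the 3 conditions. With other scalings (RLE or loess offsets) no member promoter passed for the mean.

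The peak called in HP1γ KO with Treg was the one nearest Suv39h2, inside Hspa14. It had 1.67, 0.24 and 1.17 log2 CPM (65 to 185 reads) in KO and -0.27, -0.13 and 0.41 (27 to 39 reads) in WT, and the groups overlapped. The log2 fold change was 1.26 (0.45 to 2.06, adjusted p 0.0266, edgeR). The call was lost in 5 of 17 alternatives, among them without KO replicate 1, WT replicate 1 or WT replicate 2, and the value ranged from 0.8 to 1.64. In naive cells and Tconv it was 0.52 (-1.11 to 2.15) and 0.75 (-0.21 to 1.71).

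**Figure D2:**
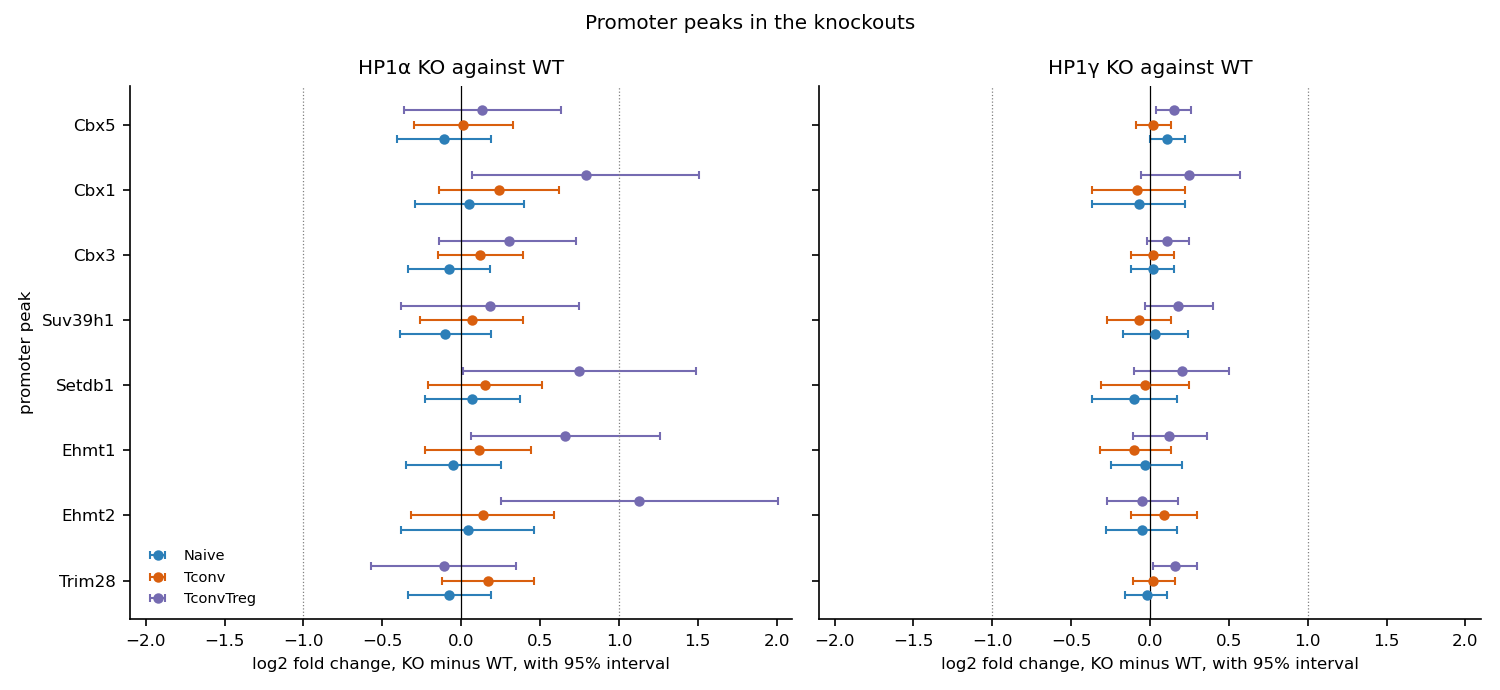
Log2 fold change of KO over WT at the promoter peaks of the 8 members in each condition and line, with 95% intervals from the edgeR fit. Intervals are narrow around 0 in HP1γ, within -0.37 to 0.57 in the 3 conditions, and widest in HP1α with Treg, which reach 2.01 at Ehmt2.

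Whether the knockout changed the response to activation or to Treg was tested as an interaction. No member was called in any of the 4 tests, where 0% of all peaks (HP1α, activation), 0.0461% (HP1α, Treg), 0.014% (HP1γ, activation) and 0.0014% (HP1γ, Treg) were. The edgeR unadjusted p was under 0.05 at 0, 2, 1 and 0 member peaks, against 1286, 7391, 6803 and 9150 of all peaks. DESeq2 and limma-voom called 0 members in each, where DESeq2 called 1, 211, 1382 and 799 of all peaks and limma-voom 0, 0, 1394 and 0. For the Cbx1 promoter the HP1α interactions were 0.18 (-0.33 to 0.7) and 0.55 (-0.27 to 1.37) and the HP1γ interactions 0 (-0.42 to 0.42) and 0.33 (-0.1 to 0.76).

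The second question was how the loci differed between naive cells and Tconv. The differences large enough for a call were at elements away from the starts, and 0 of the 8 promoters were called in any of the 4 comparisons. In HP1α WT 4 of 19 member peaks were called, all higher in Tconv, against 42.5% of all peaks (24.9% higher and 17.5% lower). In HP1α KO 3 were, all higher, against 42.6% (23.5% and 19%). In HP1γ WT 4 were, 3 higher and 1 lower, against 46.5% (24.5% and 22%), and in HP1γ KO 6 were, 5 higher and 1 lower, against 43% (22.4% and 20.6%). On the adjusted p alone 10, 6, 8 and 8 of 19 passed, against 60.9%, 61.1%, 67.6% and 61.7%. These shares differ with position, since in WT cells 11.5% (HP1α) and 12.9% (HP1γ) of 11105 promoter peaks were called, against 48.7% and 53.2% of peaks over 1 kb from a TSS. A change in the mix of cells and a change within cells cannot be told apart in these bulk libraries, and the naive and Tconv groups also differ in transfer, host and sort.

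The Setdb1 upstream element (chr3:95267651-95268110) showed the largest difference. In naive cells it had -2.96, -2.6 and -2.57 log2 CPM in HP1α WT, -1.72, -2.67 and -3.21 in HP1α KO, and -1.14, -2.05 and -2.38 in HP1γ KO. In HP1γ WT it had -4.59, -1.81 and -2.61, the first with 0 reads, and over the 12 naive libraries it held 0 to 18 reads. In Tconv it had 0.54, 0.52 and -0.41, 0.65, 0.73 and 0.52, 0.8, 0.98 and 0.38, and 0.81, 1.06 and 0.57 in HP1α WT, HP1α KO, HP1γ WT and HP1γ KO. Every Tconv library was above every naive library. The log2 fold changes were 3.56 (2.7 to 4.42), 3.47 (2.75 to 4.19), 3.73 (2.62 to 4.84) and 2.95 (1.78 to 4.12), with adjusted p of 4.11e-07, 4.1e-08, 2.89e-06 and 0.000131 (edgeR). They passed under all 17 or 18 alternatives of each comparison, with values from 2.48 to 4.55. SETDB1 is the H3K9 methyltransferase that works with TRIM28, and the promoter of its own gene had -0.41, -0.33, -0.15 and -0.08 in the same arms.

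The Cbx5 intronic element (chr15:103145881-103146210), which also overlaps an antisense long noncoding RNA gene, Gm62984, behaved alike. In naive cells it had -2.07, -1.63 and -2.04 in HP1α WT, -2.53, -1.68 and -1.83 in HP1α KO, -2.14, -2.39 and -3.68 in HP1γ WT and -2.87, -1.86 and -2.61 in HP1γ KO. In Tconv it had 0.16, 1.25 and 0.68, -0.61, -0.32 and 0.37, -0.17, -0.07 and 0.14, and -0.58, 0.23 and 0.15. The groups did not overlap in any line or genotype, on 3 to 25 reads in naive and 11 to 80 in Tconv libraries. The log2 fold changes were 2.64 (1.72 to 3.57), 1.85 (0.89 to 2.8), 3.02 (2.05 to 3.99) and 2.76 (1.64 to 3.88), with adjusted p of 4.47e-05, 0.00176, 6.38e-06 and 0.000144 (edgeR). The call in HP1α KO was lost with loess offsets, at 0.89, and the others passed in every alternative, HP1α WT at 1.45 with loess offsets.

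The Ehmt1 intronic element (chr2:24720401-24721290) was higher in Tconv in all 4 arms. It rose from 1.02, 1.04 and 0.79 to 2.36, 1.96 and 1.38 in HP1α WT and from 0.93, 0.69 and 0.58 to 2.37, 2.23 and 2.43 in HP1α KO. In HP1γ WT it was 1.33, 1.38 and 1.33 against 2.32, 1.95 and 2.04, and in HP1γ KO 1.07, 1.33 and 1.3 against 2.8, 1.9 and 2.75, with no overlap in any arm. The log2 fold changes were 1.31 (0.86 to 1.76), 1.66 (1.26 to 2.07), 0.85 (0.26 to 1.43) and 1.42 (0.77 to 2.06), with adjusted p of 4.38e-05, 7.08e-07, 0.0117 and 0.000586 (edgeR), so that the third passed the test without reaching the size of a call. EHMT1 is the partner of EHMT2 in the H3K9 mono- and dimethyltransferase complex. A second Ehmt1 peak (chr2:24742391-24742680), which overlaps an exon at 11400 bp, was called in HP1γ KO, at 1.1 (0.35 to 1.85, adjusted p 0.0124, edgeR), a call lost without naive replicate 3, and was 0.29, 0.63 and 0.23 in HP1α WT, HP1α KO and HP1γ WT. The HP1γ interaction was 0.87 (-0.12 to 1.85, adjusted p 0.581, edgeR).

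The Suv39h2 peak inside Hspa14 was called in 3 of 4 arms, at 2.06 (0.86 to 3.26) in HP1α WT, 1.64 (0.38 to 2.9) in HP1γ WT and 1.87 (0.66 to 3.09) in HP1γ KO, with adjusted p of 0.00461, 0.022 and 0.00909 (edgeR). In HP1α KO it was 1.1 (-0.18 to 2.39), and the interaction of -0.95 (-2.78 to 0.87) did not set the genotypes apart. Naive libraries held 5 to 28 reads. The calls were lost in 1, 2 and 1 alternatives, namely with the TSS share as covariate in HP1α WT, without Tconv replicate 3 or naive replicate 3 in HP1γ WT and without naive replicate 3 in HP1γ KO.

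The Cbx1 intronic element (chr11:96696471-96696790) went the other way. In HP1γ it had 1.23, 1.31 and 0.85 in WT and 0.96, 1.27 and 1.21 in KO naive cells, against 0.7, -0.81 and -0.68 and 0.06, -0.92 and -0.78 in Tconv. All Tconv libraries were below all naive libraries of their genotype in HP1γ. The log2 fold changes were -1.12 (-1.76 to -0.48) and -1.64 (-2.43 to -0.85), with adjusted p of 0.00317 and 0.000983 (edgeR), and passed under all 17 alternatives. The WT value ranged from -0.84 without Tconv replicate 2, under the size of a call, to -1.88 without Tconv replicate 1. In HP1α they were -0.86 (-1.49 to -0.23, adjusted p 0.0187) in WT, which passed without a call, and -0.52 (-1.04 to -0.01, adjusted p 0.0742) in KO (edgeR). The third Cbx1 peak, at -3962 bp (chr11:96675651-96676290), passed in HP1γ KO, at 0.75 (0.27 to 1.23, adjusted p 0.00865, edgeR), against 0.12, 0.13 and 0.12 in the other arms, and the HP1γ interaction was 0.63 (-0.01 to 1.26).

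**Figure D3:**
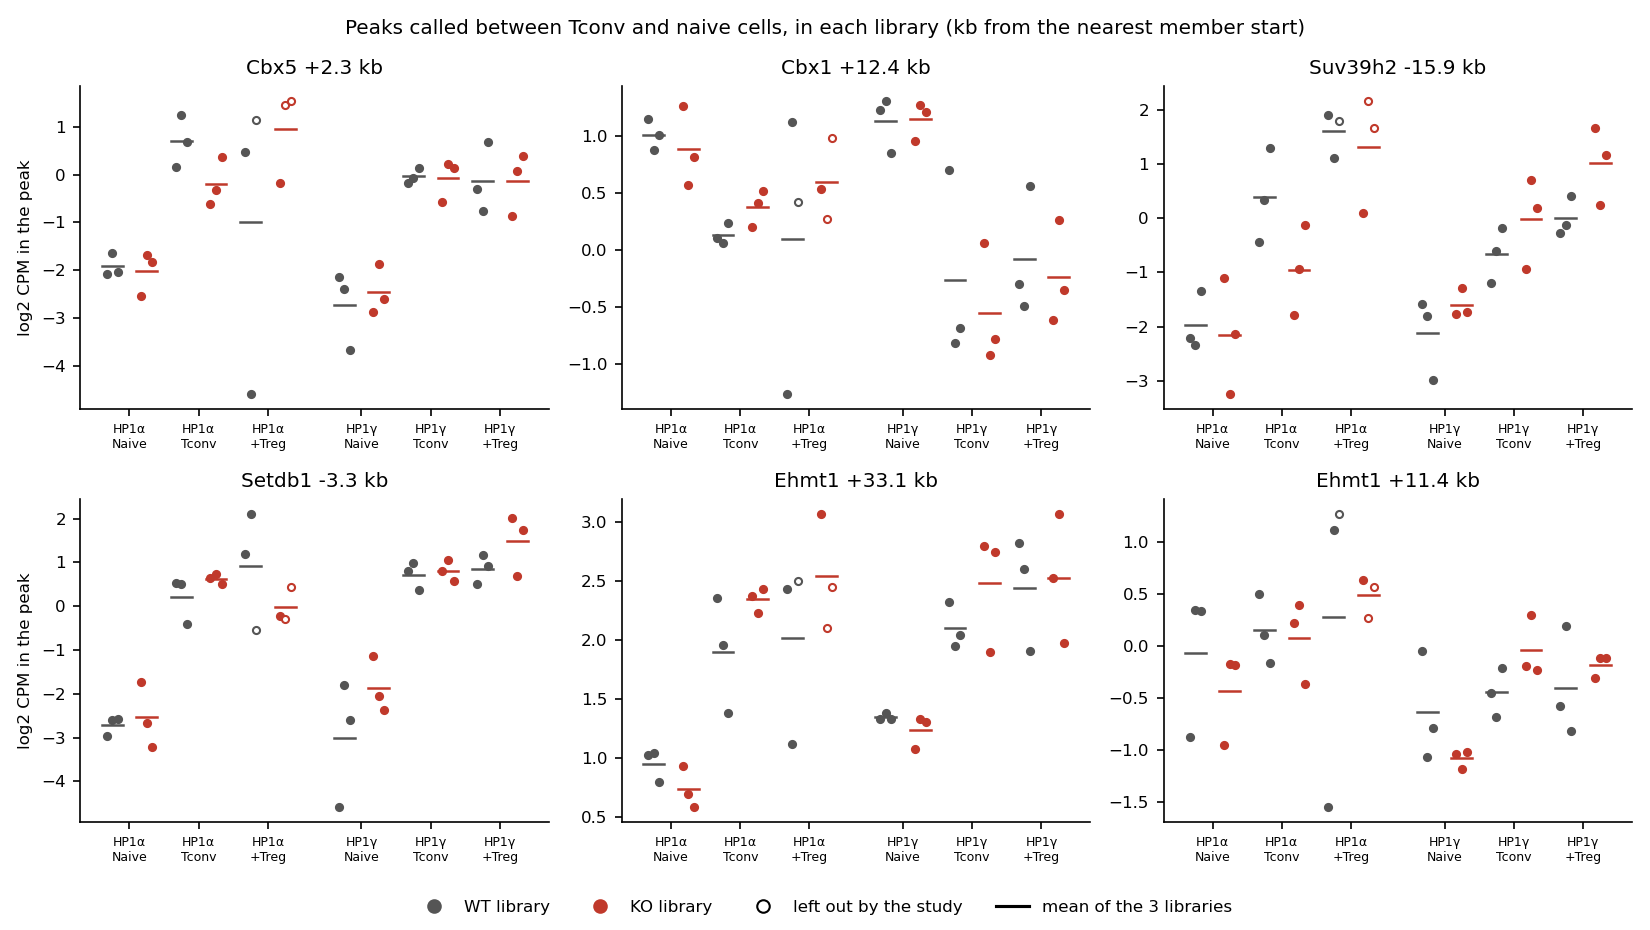
Accessibility of the member peaks called between naive cells and Tconv, as log2 CPM (prior count 2) by library, with open circles for the 3 libraries the study left out and bars for the mean over 3 libraries. The Setdb1, Cbx5, Suv39h2 and Ehmt1 elements lie higher in Tconv, by up to 3.73 in log2 fold change at Setdb1, and the Cbx1 intronic element lies lower.

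Promoters differed by less, with medians below 0 in HP1α and above 0 in HP1γ, the latter below 0 in WT with loess offsets. In HP1α WT the 8 promoters differed by -0.52 to 0.26 (median -0.42, all promoters -0.29), and 5 passed with lower values in Tconv, namely Cbx3 (-0.51, adjusted p 0.00262), Trim28 (-0.51, 0.00356), Suv39h1 (-0.52, 0.00734), Cbx5 (-0.44, 0.0163) and Setdb1 (-0.41, 0.043) in edgeR. Of all 11105 promoter peaks, 41.6% passed with lower values in HP1α WT and 26.7% in HP1α KO, and 31.8% passed with higher values in HP1γ WT and 24.8% in HP1γ KO. In HP1α KO Cbx3 (-0.31, adjusted p 0.0389) and Suv39h1 (-0.35, 0.0379) passed in edgeR, and the median was -0.29 against -0.18 over all promoters. Neither passed with RLE, where no member promoter did, or with loess offsets, where Ehmt2 alone did. In HP1γ WT the median was 0.12 (all promoters 0.08), and Ehmt2 (0.56, adjusted p 6.82e-05) and Cbx5 (0.16, 0.00838) passed with higher values, the latter turning to -0.02 with loess offsets. In HP1γ KO the median was 0.07 (all promoters 0.03) and Ehmt2 (0.71, adjusted p 1.81e-05) passed. With loess offsets, which remove a trend with abundance, the member medians were -0.09 in HP1α WT, -0.09 in HP1α KO, -0.02 in HP1γ WT and 0.04 in HP1γ KO, and those of all promoters 0.01, 0.01, -0.02 and 0.01, and in HP1α WT 2 members passed, Suv39h1 lower at -0.24 and Ehmt2 higher at 0.54, while Cbx3, Trim28, Cbx5 and Setdb1 no longer did. The median of the members and that of all promoters had the same sign in each arm before these offsets. The internal start of Cbx5, which is no main promoter, passed at -0.37 (adjusted p 0.0106, edgeR) in HP1γ WT and was -0.35, -0.26 and 0.2 in HP1α WT, HP1α KO and HP1γ KO.

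The Ehmt2 promoter was above 0 in all 4 arms. Its promoter had 4.76, 4.8 and 4.84 log2 CPM in HP1γ WT naive cells against 5.12, 5.31 and 5.46 in Tconv, and 4.69, 4.59 and 4.82 against 5.28, 5.3 and 5.52 in KO, with no overlap. In HP1α WT it had 4.64, 5.43 and 5.54 against 5.57, 5.53 and 5.07, and in KO 4.76, 5.56 and 5.47 against 5.73, 5.63 and 5.43, where groups overlapped and the differences of 0.26 (-0.19 to 0.71) and 0.35 (-0.07 to 0.77) did not pass. With loess offsets these were 0.54 and 0.55 and passed. The peak also holds a start of C2. Over the 12 groups, after centring on the mean of each line, the Ehmt2 promoter had correlations with the other 7 from 0.22 with Trim28 to 0.65 with Cbx1, while those among the HP1 paralogs were 0.85 to 0.96. Over the 33 kept libraries the Ehmt2 values were -0.17 with Trim28 to 0.69 with Cbx1, and Trim28 then had 0.49 with Cbx1. These are descriptions over group means that share libraries, depth and the low HP1α groups with Treg.

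**Figure D4:**
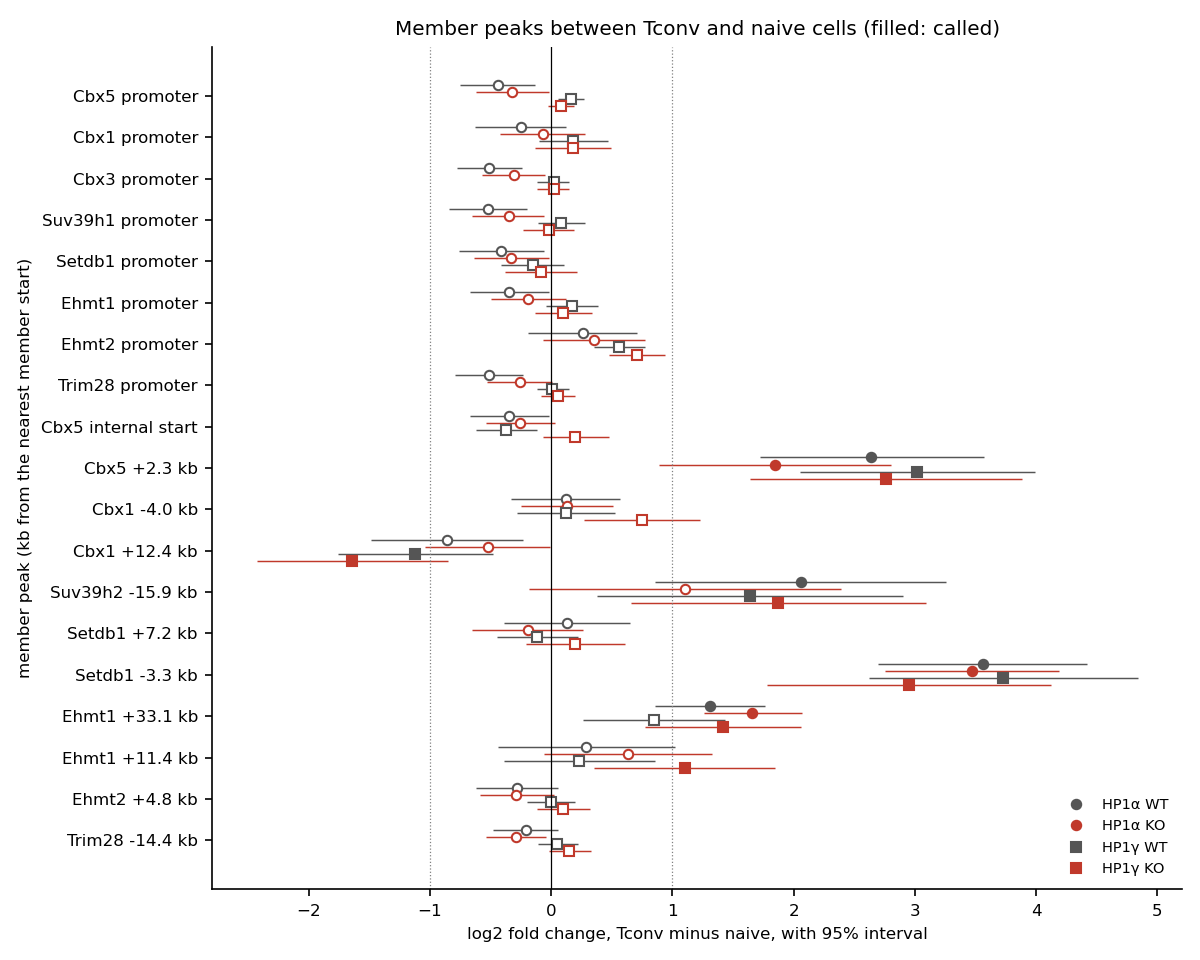
Log2 fold change of Tconv over naive cells at the member peaks in the 4 arms, with 95% intervals from the edgeR fit. The Setdb1 upstream element lies at 2.95 to 3.73 and the Cbx5 intronic element at 1.85 to 3.02, while the promoters lie between -0.52 and 0.71.

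The third question was whether cells transferred with Treg differed from Tconv alone. In HP1α WT 0 of 19 member peaks were called against 6.77% of all peaks, in HP1α KO 0 against 0.548%, in HP1γ WT 0 against 0.137% and in HP1γ KO 1 against 8.15%. These shares moved with single libraries. The 5831 peaks called in HP1γ KO ranged from 2132 to 9338 without single libraries. The 4839 peaks called in HP1α WT became 0 without replicate 1 with Treg and 1474 without Tconv replicate 1, and the 98 in HP1γ WT ranged from 1 to 865 without single libraries. At an unadjusted p under 0.05 there were 3, 2, 2 and 4 members in edgeR, against 16555, 6107, 14522 and 19484 of all peaks. DESeq2 called 1 member in HP1α WT, the Ehmt2 promoter, among 6798 of all peaks, and 0 in the others, while limma-voom called 0 in all 4. The Ehmt2 promoter in HP1α WT differed by -1.1 (-1.89 to -0.31, adjusted p 0.0814, edgeR), with the kept libraries at 4.42 and 4.01 against 5.57, 5.53 and 5.07. In HP1α KO, HP1γ WT and HP1γ KO it was -0.11 (-0.71 to 0.5), -0.13 (-0.35 to 0.1) and -0.26 (-0.48 to -0.05). The peak called in HP1γ KO was again that of Suv39h2, at 1.1 (0.37 to 1.82, adjusted p 0.0398, edgeR), with 1.67, 0.24 and 1.17 against -0.94, 0.7 and 0.19. These groups overlapped, and the call was lost in 8 of 17 alternatives, with the value at 0.65 without KO replicate 1 of the libraries with Treg, the lowest, and the call also lost without replicate 3 of these or Tconv replicate 1 or 3. In HP1α WT, with 2 kept libraries with Treg, the 8 promoter values ran from -1.1 to 0.28 (median -0.36, all promoters 0.02). With loess offsets these medians were -0.27 and 0.1. In HP1α KO, with 1 kept library with Treg, the values ran from -0.11 to 0.13 (median 0.01, all promoters 0.01). In HP1γ WT they were from -0.27 to -0.12 (median -0.16, all promoters -0.14), and with loess offsets the median was 0. In HP1γ KO they ran from -0.26 to 0.09 with a median of 0.03.

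The 3 member peaks not yet described were called in no comparison. They lie over an exon of Setdb1 at 7176 bp (chr3:95256871-95257250), over an exon of Ehmt2 at 4754 bp (chr17:35130451-35131810) and at Trim28 at -14420 bp (chr7:12742771-12744500), the last in an intron of a long Trim28 transcript and at a start of Zbtb45. In the 4 comparisons of naive cells and Tconv they ran from -0.29 to 0.2, and the Trim28 peak alone passed, at -0.29 (-0.54 to -0.04, adjusted p 0.043, edgeR) in HP1α KO. In KO against WT in the separate conditions the Setdb1 peak ran from -0.32 to 0.95, the Ehmt2 peak from 0.02 to 0.82 and the Trim28 peak from -0.02 to 0.21, the highest value of each being in HP1α with Treg.

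Of 41 further heterochromatin genes (H3K9 demethylases, other writers, writer cofactors, HP1 partners), 39 had a promoter peak, all but Mecom and Prdm16. In KO against WT no promoter was called in either line. On the adjusted p alone, Daxx, which encodes a histone H3.3 chaperone, passed in HP1α KO with Treg (0.98, adjusted p 0.0318), but not with all libraries (0.84, adjusted p 0.244). Prdm2, a gene of the PRDM methyltransferase family, passed in HP1γ KO Tconv (-0.56, 0.0328) and for the mean (-0.37, 0.00942), and Smarcad1, a chromatin remodeller, for the mean (0.2, 0.0238), all in edgeR. Between naive cells and Tconv 2 of the 39 passed higher and 15 lower in HP1α WT, where 9.53% and 41.6% of all promoter peaks did, and 2 and 7 in HP1α KO (10.8% and 26.7%). In HP1γ WT 15 passed higher and 0 lower (31.8% and 17.4%), and in HP1γ KO 12 and 6 (24.8% and 21%). Their medians were -0.25, -0.15, 0.16 and 0.1, beside -0.29, -0.18, 0.08 and 0.03 over all promoters. By class, with those shares as background, 5 of the 10 demethylases passed lower in HP1α WT, among them Kdm4b (-0.66, adjusted p 0.00163, edgeR), and 3 passed higher in HP1γ WT. Of the 19 HP1 partners, 6 passed lower in HP1α WT and 8 higher in HP1γ WT. Among the latter were Adnp (0.43, adjusted p 0.000116) and Hells (0.43, 0.000574) in edgeR. These counts lay on both sides of those shares. Of the 8 writer cofactors 3 passed lower in HP1α WT and 3 higher in HP1γ WT, where Wiz, a partner of the EHMT1 and EHMT2 complex, was at 0.53 (9.86e-06). The promoter of Kdm4d, an H3K9 demethylase gene whose peak is shared with Cwc15, was the one called, at 1.21 ± 0.09 (SE, adjusted p 6.8e-10) in HP1γ WT and 1.06 ± 0.09 (1.39e-08) in HP1γ KO, and it passed at 0.81 and 0.82 in HP1α WT and KO (edgeR).

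The promoters most like those of the HP1 paralogs over the 12 centred group means were, for Cbx5, Cox20 (r = 0.997), Zfp869 (0.996) and the peak of Fbxo24 and Lrch4 (0.996). For Cbx3 they were Pttg1ip, Gsk3a and the peak of Anapc16 and Ascc1 (each 0.995), and for Cbx1 Armh3 (0.992), Fbf1 (0.991) and Zbtb43 (0.99). The median over 11096 promoter peaks was already 0.791, 0.821 and 0.75. Without the 3 libraries left out by the study, Armh3 stayed first for Cbx1 (0.994), and the first for Cbx5 and Cbx3 were the peak of Map3k12 and Tarbp2 (0.996) and Calr (0.992), with medians of 0.635, 0.682 and 0.579.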

How the data were processed

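The authors deposited whole-number counts of reads per consensus peak, with no normalization, for 36 ATAC-seq libraries. Per the study's methods, reads were trimmed (Trim Galore 0.6.7), aligned to GRCm39 with BWA-MEM, filtered and deduplicated, HMMRATAC peaks of the single samples were merged by BEDTools, and counted with featureCounts 2.0.3, which let a read count for several peaks. Peaks of no width (3) were left out. All columns matched a sample and 0 per-sample columns were unused.

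HP1α (15 libraries kept by the study, and all 18) and HP1γ (18) were fitted apart in edgeR 4.0.16 under R 4.3.3 (quasi-likelihood, two-sided, TMM, filterByExpr), with Benjamini-Hochberg adjustment over all 71509, 71508 or 71508 peaks, in 22 comparisons. The biological coefficient of variation was 26.6%, 30.6% and 22.2%. Intervals are 95% intervals of the fit. Log2 CPM used a prior count of 2 and one scale over 36 libraries. Depth was 1.49 to 96.81 M reads in peaks, and intervals widen where it is low. The members and gene lists were chosen with earlier results of these data known. Named were the promoter peaks of members, the gene body peaks of the targeted genes, called member peaks, called promoters of the heterochromatin list and, for each HP1 gene, the 3 most similar promoters. Other values named were chosen after they were seen, as were the heterochromatin genes that passed without a call.

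Libraries with the same number deviated from their group means together, with every correlation over 0.1, in 3 comparisons: HP1α KO against WT, naive (0.25 to 0.5), HP1γ KO against WT, with Treg (0.15 to 0.32), and Treg against Tconv in HP1γ WT (0.2 to 0.29). What the numbers mark is not given in the labels. Alternatives were RLE, loess offsets (span 0.3), DESeq2 1.42.0, limma-voom (limma 3.58.1) with quality weights, no filter, only the groups compared, log2 depth or TSS share as covariate, the replicate number as a block, each library left out, all HP1α libraries, and 3 other peak assignments. The older quasi-likelihood method was added after seeing the data. The test was checked on simulated data. RNA-seq was not used here, and the naive T cell marker list is not reported here.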

Additional observations from a re-analysis of the deposited data

Results flagged for a closer look

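Differences of group means of log2 CPM are given here, and a pair is listed where every library of one comparison moved one way and every library of the other the opposite way. None of these pairs of differences was itself tested in this form.

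At the internal start of Cbx5, Tconv differed from naive cells by -0.3 in HP1α KO and by 0.15 in HP1γ KO. At the same peak, HP1γ KO differed from WT by -0.19 in naive cells and by 0.47 in Tconv with Treg. At the Cbx5 promoter, Tconv differed from naive cells by -0.49 in HP1α WT and by 0.1 in HP1γ WT, and at the Ehmt1 promoter by -0.54 and 0.11. The WT Tconv libraries of HP1α held 6.2 to 74.45 M reads in peaks and those of HP1γ 54.26 to 69.21 M. The part of depth in these differences was not tested.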

How the results depend on the processing

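The log2 fold changes of member peaks were recomputed under the alternatives. For KO against WT, Tconv against naive, Treg against Tconv and the interactions, 3711, 1208, 1236 and 1708 kept their side of the threshold. Direction was compared only where the main or the alternative value passed, so other changes of sign are not counted. 42, 79, 8 and 0 lost the threshold and 27, 41, 10 and 2 gained it. 2 reversed, both with loess offsets in HP1γ WT between naive cells and Tconv, the Cbx5 promoter at -0.02 and the Cbx3 promoter at -0.17.

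Counts of called members that moved by over 1.5 times were as follows. In HP1α KO against WT, DESeq2 gave 1 with Treg and limma-voom 1 for the mean. Between naive cells and Tconv, gene bodies alone gave 2 in HP1α WT and 2 in HP1γ WT. Leaving out libraries gave 2 to 4 in HP1γ WT, lowest without Tconv replicate 3. In HP1α WT with against without Treg, the main count of 0 became 1 with DESeq2, the TSS share as covariate, the older quasi-likelihood method and all 18 libraries, and 0 to 1 when leaving out libraries (1 without Tconv replicate 3). In HP1γ KO against WT with Treg, the count of 1 became 0 with the nearest TSS of any gene, gene bodies alone, the older method and only the groups compared, 2 with the TSS share, and 0 to 2 when leaving out libraries. The TSS share also gave 1 for the HP1γ mean. In HP1γ KO with against without Treg, the count of 1 became 0 with the nearest TSS of any gene, gene bodies alone, DESeq2, limma-voom, the older method and only the groups compared, and 0 to 2 when leaving out libraries. Gene bodies alone left 16 member peaks, the nearest TSS of any gene gave 19 and one start per gene 26. The cause of the other changes was not tested.

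With the replicate block the Suv39h2 peak was called in HP1α WT with against without Treg (count 1, log2 fold change 2.01), and no other count of called members changed. The numbers share no stated source there. Elements with under 30 reads in a library and the HP1α libraries with Treg had wide intervals. The HP1α comparison with Treg could not be recomputed without its only kept KO library.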
